A study of Mus musculus with 16 samples.

Results

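Reg4, Mptx1, Nov, Kit and Cd24a, 5 genes used as markers of deep crypt secretory cells, were followed through sorted epithelium of the mouse distal colon. They were taken by symbol from a count table of 21442 genes, and all 5 passed the filter on low counts that left 12915 genes to be tested. The colon has few or no Paneth cells, the granule cells that sit among the stem cells of the small intestine. Deep crypt secretory cells take that place at the colonic crypt base, where they touch Lgr5-positive stem cells and present Notch and EGF-type ligands to them. They belong to the secretory lineage that also gives rise to goblet cells, which make and secrete the mucus. Spdef is an ETS-family transcription factor of that lineage, needed for goblet cell maturation.

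The 16 libraries came from mice aged 6 to 8 weeks, all of which carried the RedMUC298trTg reporter, a transgene that marks cells making the mucin Muc2 with mCherry. Live cells were sorted on mCherry into goblet cells (GC, mCherry present) and the remaining epithelial cells (EC, mCherry absent). There were 4 groups of 4 libraries: SpdefKO_GC and SpdefKO_EC from Spdef -/- mice with the reporter, and WT_GC and WT_EC from mice with the reporter and no Spdef deletion. Libraries are named below by group and by the number in their label. The labels do not state whether replicate libraries are separate mice. The p-values therefore measure the spread between libraries, which may be partly technical. Goblet cell RNA was purified on MinElute columns and EC RNA on Mini columns, so column and fraction cannot be told apart.

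Counts assigned to genes summed to between 10085637 and 17111987 per library. Muc2, the gene behind the gate, averaged 13010 ± 1580 CPM (counts per mega-count of gene counts; mean ± SD, n = 4 here and below) in SpdefKO_GC and 26.7 ± 8.76 CPM in SpdefKO_EC. In WT mice it averaged 12480 ± 614 CPM in WT_GC and 47.4 ± 8.54 CPM in WT_EC. Spdef itself averaged 385 ± 69.6 CPM in SpdefKO_GC and 306 ± 19.03 CPM in WT_GC, a log2 difference of 0.33 ± 0.14 (SE; adjusted p = 0.116). The whole-gene count was thus not lower in the libraries labelled SpdefKO, and the labels do not say what the deletion takes out. The genotype rests on the labels throughout.

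Log2 fold changes and adjusted p-values come from the edgeR quasi-likelihood test over all 12915 genes with Benjamini-Hochberg adjustment, and "rose" or "fell" is used where the adjusted p was under 0.05. Each ± beside a log2 fold change is an approximate standard error, and intervals are approximate 95% intervals.

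All 5 markers were far higher in goblet cells than in the remaining epithelium, in both genotypes. Reg4, a secreted lectin-like protein of the regenerating-islet family, is a common mark of deep crypt secretory cells. It had 1003, 781, 952 and 1021 CPM in the SpdefKO_GC libraries 3, 5, 7 and 19, against 12.4, 9.16, 9.44 and 7.44 CPM in the SpdefKO_EC libraries 4, 6, 8 and 20. In WT mice it had 1611, 1429, 2293 and 1480 CPM in the WT_GC libraries 9, 11, 13 and 18, against 12.4, 11.01, 28.8 and 14.6 CPM in the WT_EC libraries 10, 12, 14 and 17. The lowest goblet cell library thus lay far above the highest EC library. The log2 difference between the fractions was 6.47 ± 0.29 in SpdefKO mice (88.5-fold, adjusted p = 2.97e-11) and 6.60 ± 0.29 in WT mice (97.2-fold, adjusted p = 1.72e-11).

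Mptx1 is a mucosal member of the short pentraxin family, whose best known relatives are C-reactive protein and serum amyloid P. It had 1461, 2409, 2142 and 2330 CPM in the SpdefKO_GC libraries 3, 5, 7 and 19. The WT_GC libraries 9, 11, 13 and 18 had 5284, 3320, 7434 and 5086 CPM. In the EC fraction it had 4.12, 5.65, 4.54 and 5.06 CPM in the SpdefKO_EC libraries 4, 6, 8 and 20, against 14.8, 11.7, 30.8 and 14.4 CPM in the WT_EC libraries 10, 12, 14 and 17. The fractions differed by 8.63 ± 0.38 on the log2 scale in SpdefKO mice (397-fold, adjusted p = 3.44e-11) and by 8.13 ± 0.36 in WT mice (281-fold, adjusted p = 3.05e-11).

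Nov, listed as Ccn3 in current annotation, encodes a secreted matricellular protein of the CCN family. It had 1433, 987, 1662 and 1128 CPM in the SpdefKO_GC libraries 3, 5, 7 and 19, and 1863, 1529, 2004 and 1888 CPM in the WT_GC libraries 9, 11, 13 and 18. The EC fraction held between 2.39 and 4.48 CPM in SpdefKO_EC and between 3.85 and 8.23 CPM in WT_EC. The difference between fractions was 376-fold in SpdefKO mice (log2 8.56 ± 0.26, adjusted p = 8.31e-14) and 334-fold in WT mice (log2 8.38 ± 0.26, adjusted p = 6.08e-14).

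Kit, the receptor tyrosine kinase for stem cell factor, had 238, 359.6, 251 and 237 CPM in the SpdefKO_GC libraries 3, 5, 7 and 19, against 299, 284, 289.9 and 277 CPM in the WT_GC libraries 9, 11, 13 and 18. SpdefKO_GC 5 stood above every other goblet cell library for this gene. The EC libraries held between 5.87 and 9.32 CPM in SpdefKO_EC and between 8.01 and 12.96 CPM in WT_EC. Kit was 34.4-fold higher in goblet cells of SpdefKO mice (log2 5.10 ± 0.18, adjusted p = 1.65e-13) and 27.8-fold higher in those of WT mice (log2 4.80 ± 0.18, adjusted p = 2.1e-13).

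Cd24a, a small heavily glycosylated surface protein anchored to the membrane by a lipid, differed least between the fractions. It had 934, 885, 967 and 919.6 CPM in the SpdefKO_GC libraries 3, 5, 7 and 19, against 237, 232, 181 and 264 CPM in the SpdefKO_EC libraries 4, 6, 8 and 20. The WT_GC libraries 9, 11, 13 and 18 had 845, 957, 1049 and 986 CPM, against 194, 183, 283 and 215 CPM in the WT_EC libraries 10, 12, 14 and 17. The ranges of the fractions did not overlap in either genotype. The difference was 3.72-fold in SpdefKO mice (log2 1.89 ± 0.12, adjusted p = 8.03e-11) and 4.16-fold in WT mice (log2 2.06 ± 0.12, adjusted p = 2.15e-11).

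All 5 of 5 markers therefore rose in goblet cells in each genotype, where 28% of all tested genes rose in SpdefKO mice and 31% in WT mice. With upper-quartile in place of TMM scaling, the higher and lower calls between the fractions in SpdefKO mice were 4752 and 3047 genes instead of 3619 and 3666. That scaling moved the median log2 difference of all genes there to 0.15, against 0.03 with TMM. Ranked by the absolute log2 difference between WT_GC and WT_EC, Nov was number 12 of 12915 genes, Mptx1 number 14, Reg4 number 43, Kit number 163 and Cd24a number 1099. Muc2, on which the gate rests, was number 16. In these sorted pools, fewer cells of a type and less RNA per cell cannot be told apart. The level left in the EC fraction, as a share of the goblet cell level, was 0.232% for Mptx1, 0.241% for Nov, 1.02% for Reg4, 2.65% for Kit and 24.7% for Cd24a in SpdefKO mice. In WT mice it was 0.339% for Mptx1, 0.285% for Nov, 0.98% for Reg4, 3.41% for Kit and 22.8% for Cd24a. For Muc2 it was 0.206% in SpdefKO mice and 0.38% in WT mice.

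**Figure D1:**
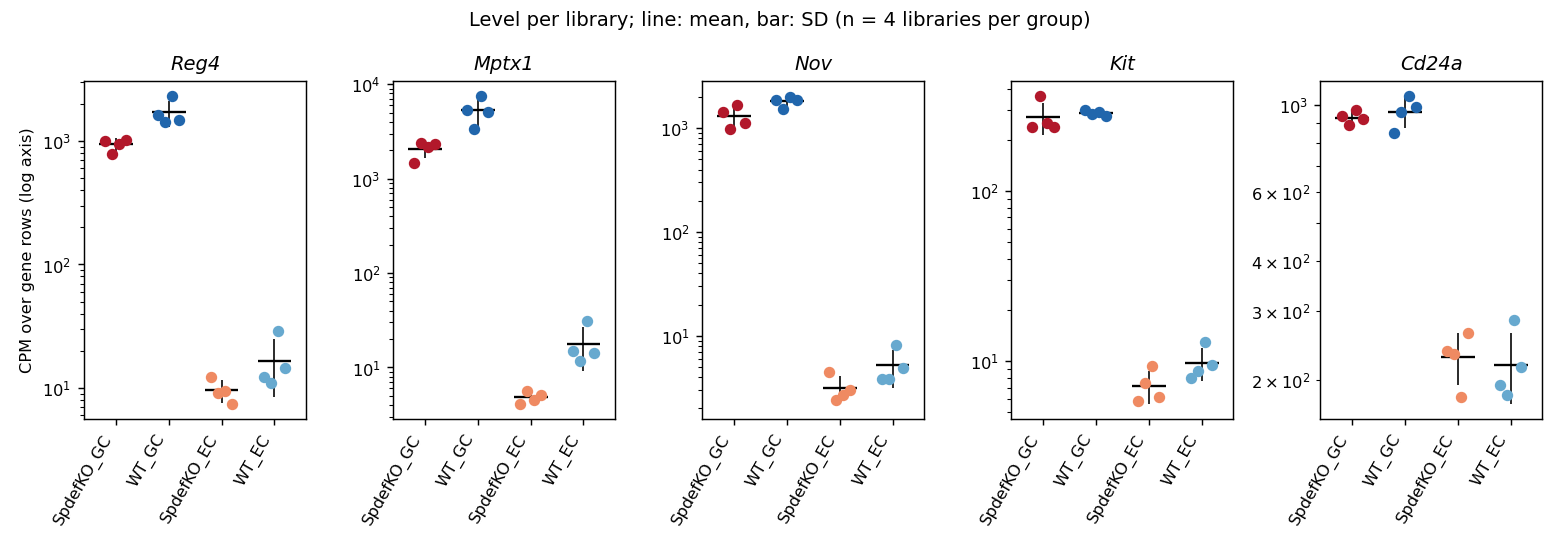
Level of each marker in each of the 16 libraries, as CPM on a log axis, by group (points are libraries, horizontal lines the group means, vertical bars the SD, n = 4). Each marker has its own axis range. Every goblet cell library lies above every EC library, by a wide gap for Nov and Mptx1 and by the smallest gap for Cd24a, and the SpdefKO_GC points lie below the WT_GC points for Reg4 and Mptx1.

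The order of the markers within a fraction was read per kilobase of annotated exon, since a longer transcript collects more reads. Exons of all annotated transcripts of a gene were pooled, 8911 bases from 8 transcripts for Kit and 2580 bases from 3 for Cd24a. Reg4, Mptx1 and Nov have 1 annotated transcript each, so the levels of Kit and Cd24a may be understated beside theirs. In SpdefKO_GC the order by mean was Mptx1 with 2610 ± 540 CPM per kilobase, Reg4 with 919.9 ± 107, Nov with 454 ± 106, Cd24a with 359 ± 13.1 and Kit with 30.5 ± 6.64. WT_GC had the same order, with 6610 ± 2110 CPM per kilobase for Mptx1, 1668 ± 392 for Reg4, 635 ± 71.1 for Nov, 372 ± 33.1 for Cd24a and 32.3 ± 1.05 for Kit. Nov and Cd24a lay within a SD of Nov of each other in SpdefKO_GC, and the other neighbours were further apart than their SDs. Among 21100 symbols with an exon length, Mptx1 ranked number 8 in SpdefKO_GC and number 2 in WT_GC by this measure. Reg4 ranked number 24 in SpdefKO_GC and number 15 in WT_GC. In the EC fraction Cd24a came first, with 88.6 ± 13.4 CPM per kilobase in SpdefKO_EC and 84.9 ± 17.4 in WT_EC. The other 4 markers had between 0.806 and 9.40 CPM per kilobase in SpdefKO_EC and between 1.10 and 22.4 in WT_EC.

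The genes lie on 5 chromosomes of the mouse build GRCm38, all on the plus strand, and no other gene annotated in GENCODE M21 overlaps any of them. Reg4 spans chr3:98222156-98236748 with 6 exons. Mptx1 spans chr1:174330518-174332873 with 2 exons, Nov chr15:54745702-54754039 with 5 exons and Cd24a chr10:43578284-43584265 with 2 exons. Kit spans chr5:75574916-75656722 with up to 21 exons. Mptx1 has a close relative, Mptx2, whose transcript was 92.3% identical over 795 aligned bases and which had 5 counts over SpdefKO_GC and 23 over WT_GC. Cd24a has the processed pseudogenes Gm6212 (95.2% over 228 bases) and Gm15352 (91.9% over 258 bases), which are not rows of the table. Reads that align to several places were kept apart from the gene counts, so the levels of Mptx1 and Cd24a are uncertain to that extent.

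Among goblet cells, Mptx1 and Reg4 fell in SpdefKO_GC relative to WT_GC, and Nov, Kit and Cd24a did not pass the test. Mptx1 averaged 2086 ± 431 CPM in SpdefKO_GC and 5281 ± 1685 CPM in WT_GC, a log2 difference of -1.34 ± 0.26 (2.54-fold lower, adjusted p = 0.00238). Reg4 averaged 939 ± 109 CPM in SpdefKO_GC and 1703 ± 401 CPM in WT_GC, a log2 difference of -0.87 ± 0.22 (1.82-fold lower, adjusted p = 0.0121). For each, all 4 SpdefKO_GC libraries lay below all 4 WT_GC libraries. The 2 of 5 markers that fell stand against 11% of all tested genes that fell in this comparison, and none of the 5 rose, against 10.4% of all tested genes. Leaving out any goblet cell library kept both calls, with adjusted p between 0.000899 and 0.00913 for Mptx1 and between 0.0168 and 0.043 for Reg4.

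Nov averaged 1302 ± 304 CPM in SpdefKO_GC and 1821 ± 204 CPM in WT_GC, a log2 difference of -0.50 ± 0.18 that missed the threshold (adjusted p = 0.0553, interval -0.84 to -0.15). SpdefKO_GC 7, with 1662 CPM, overlapped the WT_GC range, and the call was made without that library (log2 -0.61, adjusted p = 0.0274). It was also made by limma-voom (adjusted p = 0.0113) and in a fit of the goblet cell libraries alone (adjusted p = 0.0379). In all, 2 of 6 other settings made the call, with adjusted p up to 0.121. Of 8 edgeR fits that each left out a library, 1 made it, with adjusted p up to 0.153.

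Kit averaged 271 ± 59.2 CPM in SpdefKO_GC and 287 ± 9.36 CPM in WT_GC (log2 -0.09 ± 0.14, adjusted p = 0.711). Its interval ran from -0.37 to 0.19 on the log2 scale. The 3 SpdefKO_GC libraries other than number 5 lay below the WT_GC range, and without number 5 the log2 difference was -0.26 (adjusted p = 0.116). Cd24a averaged 926 ± 33.9 CPM in SpdefKO_GC and 959 ± 85.5 CPM in WT_GC (log2 -0.06 ± 0.11, adjusted p = 0.764, interval -0.28 to 0.17).

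The markers thus differed in how their libraries lay. Counts of Mptx1 per count of Kit, a ratio that library size does not touch, ran from 6.14 to 9.84 in SpdefKO_GC and from 11.7 to 25.6 in WT_GC. Counts of Reg4 per count of Kit ran from 2.17 to 4.31 in SpdefKO_GC and from 5.03 to 7.91 in WT_GC. Neither pair of ranges overlapped. Counts of Cd24a per count of Kit overlapped, with 2.46 to 3.92 in SpdefKO_GC and 2.83 to 3.62 in WT_GC. So did counts of Mptx1 per count of Reg4, with 1.46 to 3.08 in SpdefKO_GC and 2.32 to 3.44 in WT_GC. These ratios are given as descriptions and were not tested. Together the 5 markers held 0.552% ± 0.038 of gene counts in SpdefKO_GC and 1.01% ± 0.228 in WT_GC. Mptx1 made up on average 37.6% of that sum in SpdefKO_GC and 51.7% in WT_GC.

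**Figure D2:**
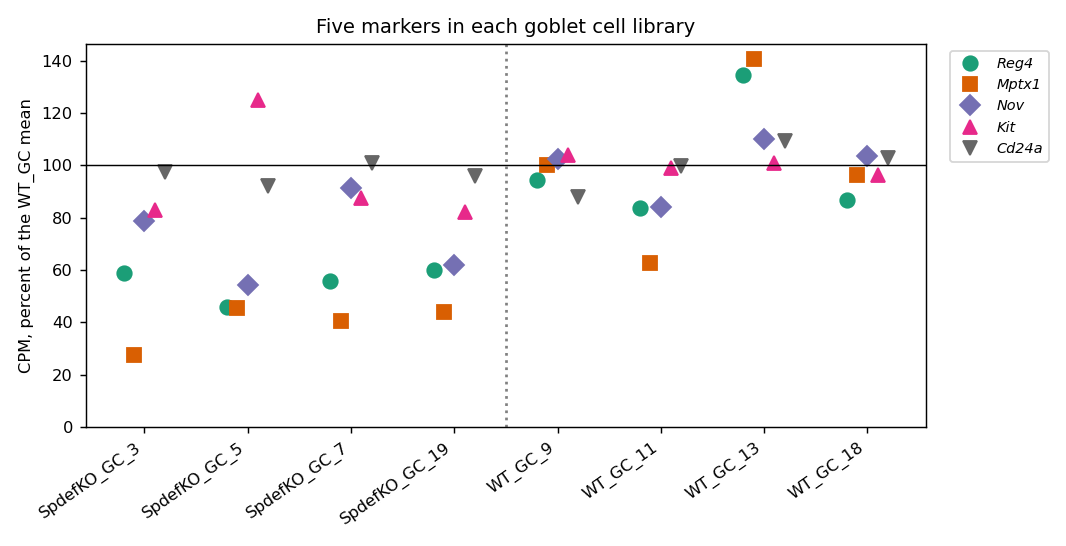
CPM of each marker in each goblet cell library, as a percentage of that marker's WT_GC mean (black line at 100). In the 4 SpdefKO_GC libraries Reg4 lies between 45.9% and 59.9% and Mptx1 between 27.7% and 45.6%, while Cd24a lies between 92.3% and 101%. Kit reaches 125% in SpdefKO_GC 5.

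The promoters of Reg4, Mptx1 and Kit are shown because the first pair fell in SpdefKO_GC and Kit did not pass the test. They are the 250 bases before and 50 after a transcription start, from RefSeq on GRCm38.p6, plus strand, 5′ to 3′. No entry for Nov or Cd24a was used here. Capitals mark matches on either strand to AGGAT, an ETS-type core of the kind bound by Spdef, and to CANNTG, the E-box bound by bHLH factors such as Atoh1. The regions are chr3:98221906-98222205 (Reg4), chr1:174330268-174330567 (Mptx1) and chr5:75574737-75575036 (Kit, the first of its pair of annotated starts).
Reg4: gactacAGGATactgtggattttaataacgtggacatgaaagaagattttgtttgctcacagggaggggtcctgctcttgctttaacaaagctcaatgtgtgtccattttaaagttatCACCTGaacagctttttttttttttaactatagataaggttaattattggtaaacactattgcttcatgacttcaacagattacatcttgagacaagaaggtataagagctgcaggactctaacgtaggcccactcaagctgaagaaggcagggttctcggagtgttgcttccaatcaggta
Mptx1: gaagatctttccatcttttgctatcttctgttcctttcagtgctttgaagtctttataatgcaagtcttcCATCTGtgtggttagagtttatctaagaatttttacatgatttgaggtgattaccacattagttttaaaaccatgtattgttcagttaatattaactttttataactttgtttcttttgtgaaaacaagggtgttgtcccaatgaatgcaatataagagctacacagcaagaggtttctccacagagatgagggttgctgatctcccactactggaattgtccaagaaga
Kit: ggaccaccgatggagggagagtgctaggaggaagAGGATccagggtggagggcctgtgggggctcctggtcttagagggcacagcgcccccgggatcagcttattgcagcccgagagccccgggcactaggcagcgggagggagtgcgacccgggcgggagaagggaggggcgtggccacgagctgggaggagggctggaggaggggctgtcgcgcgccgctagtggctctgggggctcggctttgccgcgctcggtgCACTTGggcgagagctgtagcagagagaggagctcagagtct

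Reg4 held 1 AGGAT match at -244 and 1 E-box, CACCTG, at -132 from the start. Mptx1 held 1 E-box, CATCTG, at -180 and no AGGAT match. Kit held 1 AGGAT match at -216 and 1 E-box, CACTTG, at 9. None of the 3 windows held the longer ETS core CCGGAT, and none held the E-box form CAGCTG. Among 32817 promoters of the same length, 41.0% held the shorter ETS core and 6.04% the longer. Any E-box was held by 72.3% and the form named last by 16.3%. No match to the longer ETS core contains the shorter, and the second E-box form is a special case of the first. The windows differed in base composition, with 39.3% G and C in Reg4, 35% in Mptx1 and 69% in Kit, against a median of 52.7% over all promoters. A match is a run of letters and says nothing about binding.

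In the EC fraction, Mptx1 fell in SpdefKO_EC, and the other 4 markers did not pass the test. Mptx1 averaged 4.84 ± 0.663 CPM in SpdefKO_EC and 17.9 ± 8.69 CPM in WT_EC, a log2 difference of -1.84 ± 0.35 (3.59-fold lower, adjusted p = 0.00364). All 4 SpdefKO_EC libraries lay below all 4 WT_EC libraries. This 1 of 5 stands against 6.54% of all tested genes that fell and none of the 5 rose, against 6.09% of all tested genes (844 lower and 787 higher, or 1079 lower and 533 higher with upper-quartile scaling). WT_EC 14 had the highest value of its group for all 5 markers, as WT_GC 13 had of its group for every marker but Kit. The labels do not say whether libraries with adjacent numbers share a mouse, and no fit paired them. In WT_EC 14 the 8 goblet cell markers summed to 784 CPM, against 583 to 594 CPM in the other 3 WT_EC libraries. Tuft cell markers summed to 70.75 CPM there, against 33.5 to 38.9 CPM in the other 3, and enteroendocrine markers to 756 CPM, against 549 to 636 CPM. Muc2 had 53.06 CPM in WT_EC 14 and 55.84 CPM in WT_EC 17. What these cells contribute to the marker levels of WT_EC 14 was not tested. Without WT_EC 14 the log2 difference of Mptx1 was -1.48 (adjusted p = 0.00572).

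Reg4 averaged 9.60 ± 2.04 CPM in SpdefKO_EC and 16.7 ± 8.22 CPM in WT_EC (log2 -0.73 ± 0.27, adjusted p = 0.0911). Without WT_EC 14 this log2 difference was -0.36 (adjusted p = 0.261). Nov averaged 3.13 ± 0.929 CPM in SpdefKO_EC and 5.20 ± 2.08 CPM in WT_EC (log2 -0.67 ± 0.28, adjusted p = 0.132), and DESeq2 called it (log2 -0.68, adjusted p = 0.0322). Without WT_EC 14 the log2 difference of Nov was -0.38 (adjusted p = 0.378). Kit averaged 7.19 ± 1.57 CPM in SpdefKO_EC and 9.81 ± 2.19 CPM in WT_EC (log2 -0.39 ± 0.19, adjusted p = 0.19), and without WT_EC 14 it was at log2 -0.25 (adjusted p = 0.412). Cd24a averaged 228.5 ± 34.7 CPM in SpdefKO_EC and 219 ± 45.0 CPM in WT_EC (log2 0.10 ± 0.11, adjusted p = 0.593).

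The levels in EC are low for all but Cd24a. Summed over 4 libraries, Nov had 186 counts in SpdefKO_EC and 294 in WT_EC, and Mptx1 had 283 counts in SpdefKO_EC and 1017 in WT_EC. Muc2 also fell in SpdefKO_EC (log2 -0.78 ± 0.17, adjusted p = 0.00715), and it did not pass the test in goblet cells (log2 0.05 ± 0.16, adjusted p = 0.84). What goblet cell RNA in the mCherry-absent gate contributes to the EC levels of the markers was not tested.

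The genotype difference in goblet cells minus that in EC was itself tested. It did not pass for any of the 5 markers, where 9.53% of all tested genes did. For Mptx1 it was 0.50 ± 0.44 on the log2 scale (adjusted p = 0.536, interval -0.35 to 1.35) and for Reg4 -0.13 ± 0.35 (adjusted p = 0.867, interval -0.82 to 0.55). For Nov it was 0.17 ± 0.33 (adjusted p = 0.805), for Kit 0.30 ± 0.24 (adjusted p = 0.479) and for Cd24a -0.16 ± 0.16 (adjusted p = 0.595). The sign for Reg4 turned when any of 4 single libraries was left out, with values between -0.494 and 0.035 over all such fits. The intervals are wide enough to hold a difference of over 1.5-fold for Reg4, Mptx1, Nov and Kit.

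**Figure D3:**
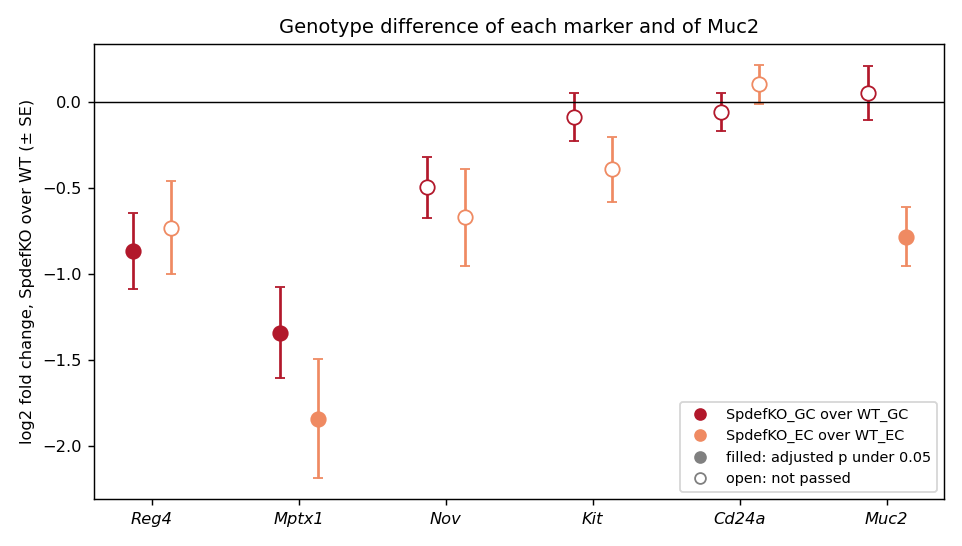
Log2 fold change of SpdefKO over WT for each marker and for Muc2, in goblet cells (dark) and in the remaining epithelium (light), with the approximate standard error. Filled points passed an adjusted p of 0.05. Mptx1 is lowest in each fraction, at -1.34 in goblet cells and -1.84 in EC, and Kit and Cd24a lie close to 0 in goblet cells.

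The markers were also set against Muc2 in the same library. Per 100 counts of Muc2, Mptx1 had 16 ± 2.62 counts in SpdefKO_GC and 42.7 ± 15.4 in WT_GC, and in EC 18.9 ± 3.57 in SpdefKO_EC and 37.3 ± 14.2 in WT_EC. Nov had 10.2 ± 2.86 counts in SpdefKO_GC and 14.6 ± 2.04 in WT_GC, with 12.8 ± 5.72 for SpdefKO_EC and 10.9 ± 3.17 for WT_EC. For these genes the 2 fractions of a genotype overlapped in their ratio to Muc2. Reg4 had 7.37 ± 1.61 in SpdefKO_GC and 13.8 ± 3.95 in WT_GC, but 38.8 ± 14.9 in SpdefKO_EC and 34.6 ± 13.2 in WT_EC. Kit had 2.07 ± 0.225 in SpdefKO_GC and 2.31 ± 0.168 in WT_GC, against 29.1 ± 12.3 in SpdefKO_EC and 20.8 ± 3.56 in WT_EC. Cd24a had 7.21 ± 0.964 in SpdefKO_GC and 7.71 ± 0.908 in WT_GC, against 901 ± 219 in SpdefKO_EC and 464 ± 62.5 in WT_EC. Reg4, Kit and Cd24a thus had a higher ratio to Muc2 in every EC library than in any goblet cell library.

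**Figure D4:**
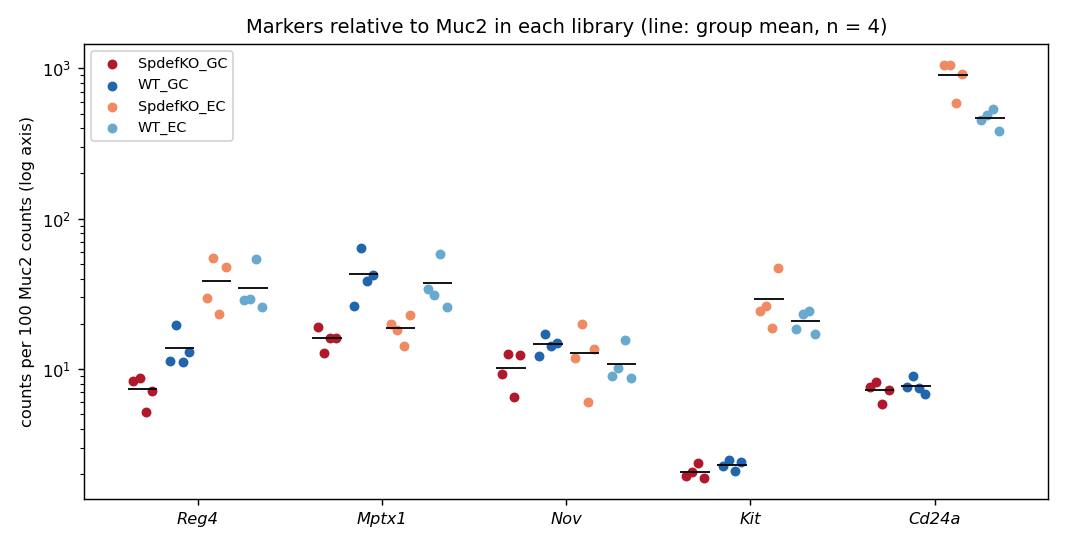
Counts of each marker per 100 counts of Muc2 in each library, on a log axis (lines are group means, n = 4). Mptx1 and Nov have similar ratios in the fractions of a genotype, while Reg4, Kit and Cd24a have higher ratios in EC, up to a mean of 901 for Cd24a in SpdefKO_EC.

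Some of the markers are also made by other cells, so defining genes of those cells were read beside them. Reg4 and Cd24a are known in enteroendocrine cells, whose 10 markers summed to 219 to 323 CPM in SpdefKO_GC and 91 to 132 CPM in WT_GC, with none at 0. Of these 10 markers 8 rose in SpdefKO_GC, against 10.4% of all tested genes, and none fell. In EC the same markers summed to 237 to 396 CPM in SpdefKO_EC and 549 to 756 CPM in WT_EC. There 6 of 10 fell in SpdefKO_EC, against 6.54% of all tested genes, and none rose. The part of enteroendocrine cells in the Reg4 and Cd24a levels was not tested. Kit is also known in mast cells, whose 10 markers summed to 6.41 to 8.63 CPM in SpdefKO_GC and 8.01 to 10.9 CPM in WT_GC, nearly all of it Cma1. Cpa3, a defining mast cell protease, had 0 counts in SpdefKO_GC and 2 counts in WT_GC. In EC the mast cell markers summed to 2.68 to 10.7 CPM in SpdefKO_EC and 1 to 2.26 CPM in WT_EC. Of the 3 tested there, 2 rose in SpdefKO_EC, against 6.09% of all tested genes, and none fell. Kit marks interstitial cells of Cajal too. Of their 4 markers, which summed to 575 to 631 CPM in SpdefKO_GC and 537 to 563 CPM in WT_GC, Hand1 had 8 counts in SpdefKO_GC and 7 in WT_GC and Gjc1 had 3 in SpdefKO_GC and 1 in WT_GC, while Ano1 and Thbs4 made up the rest. Paneth cell markers, of which 3 of 5 were in the table, summed to 6.75 to 9.31 CPM in SpdefKO_GC and 3.65 to 7.55 CPM in WT_GC. Of the 3, only Mmp7 had the higher mean in SpdefKO_GC, with 4.75 CPM against 0.72 CPM in WT_GC. Lyz1 had 0.962 CPM in SpdefKO_GC and 2.08 CPM in WT_GC, and Itln1 had 2.77 CPM in SpdefKO_GC and 3.32 CPM in WT_GC. The 8 goblet cell markers summed to 56000 to 66700 CPM in SpdefKO_GC and 50400 to 57500 CPM in WT_GC. Tuft cell markers summed to 18.1 to 43.7 CPM in SpdefKO_GC and 35.4 to 46.9 CPM in WT_GC, leukocyte markers to 6.57 to 7.43 CPM in SpdefKO_GC and 3.71 to 4.01 CPM in WT_GC, and stromal markers to 21.3 to 23.9 CPM in SpdefKO_GC and 11.1 to 15.7 CPM in WT_GC. In EC the tuft cell markers summed to 8.63 to 14.3 CPM in SpdefKO_EC and 33.5 to 70.7 CPM in WT_EC. There 4 of the 6 tested fell in SpdefKO_EC, against 6.54% of all tested genes, and none rose. Absorptive cell markers summed to 308 to 475 CPM in SpdefKO_GC and 207 to 306 CPM in WT_GC. That sum includes Guca2b, with 76.5 ± 4.42 CPM in SpdefKO_GC and 28.2 ± 3.7 CPM in WT_GC. Guca2b was lower in EC, with 2.78 ± 0.809 CPM in SpdefKO_EC and 4.18 ± 0.465 CPM in WT_EC. The part of any of these cell types in the marker differences was not tested.

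Related genes were counted in lists, in goblet cells first, where 10.4% of all tested genes rose and 11% fell. The lists were chosen with earlier results of these data known, so their counts are descriptions and no set was tested. Of 12 listed Notch, EGF-family, Wnt and R-spondin ligands, 7 were tested, 1 rose and 1 fell, shares close to those of all genes, with a median log2 difference of 0.25 against 0.00 for all genes. Dll1, a Notch ligand, rose to 138 ± 14.4 CPM in SpdefKO_GC, against 77.1 ± 8.59 CPM in WT_GC (log2 0.84 ± 0.09, adjusted p = 3.72e-06). Egf, the epidermal growth factor, fell to 23.3 ± 4.50 CPM in SpdefKO_GC, against 46.8 ± 1.92 CPM in WT_GC (log2 -1.01 ± 0.15, adjusted p = 8.57e-05). Dll4, the other Delta-type ligand tested, averaged 72.6 ± 11.7 CPM in SpdefKO_GC and 56.4 ± 7.14 CPM in WT_GC (log2 0.36 ± 0.13, adjusted p = 0.0598). These 3 ligands were higher in goblet cells than in EC of WT mice, by 2.87 ± 0.11 for Dll1, 3.86 ± 0.17 for Dll4 and 4.77 ± 0.20 for Egf on the log2 scale (adjusted p between 3.92e-14 and 3.19e-13). The other 4 tested ligands, all of the EGF family, were lower in goblet cells in that comparison. Their log2 differences were -4.07 ± 0.37 for Ereg, -2.81 ± 0.23 for Areg, -2.16 ± 0.24 for Hbegf and -0.24 ± 0.10 for Tgfa (adjusted p between 4.1e-08 and 0.0499).

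Of 14 listed products of Paneth cells and their relatives, 10 were tested, 3 rose and 3 fell, against 10.4% and 11% of all genes, with a median log2 difference of -0.07. Ang4, a microbicidal ribonuclease, rose to 189 ± 66.1 CPM in SpdefKO_GC, against 23.5 ± 2.92 CPM in WT_GC (log2 3.01 ± 0.23, adjusted p = 2.06e-07). It has near-identical relatives that could share its reads. Guca2a, which encodes guanylin, a peptide that controls salt and water secretion, rose to 566 ± 28.9 CPM in SpdefKO_GC, against 263 ± 22.9 CPM in WT_GC (log2 1.10 ± 0.08, adjusted p = 1.64e-08). Nupr1, a stress-response nuclear protein, fell to 185 ± 23.3 CPM in SpdefKO_GC, against 514.5 ± 73.1 CPM in WT_GC (log2 -1.49 ± 0.20, adjusted p = 9.06e-05). Clps, the pancreatic lipase cofactor colipase, fell to 15.5 ± 2.49 CPM in SpdefKO_GC, against 24.9 ± 3.98 CPM in WT_GC (log2 -0.68 ± 0.17, adjusted p = 0.00623). The remaining calls, outside the naming rule and named after their values were seen, were Mmp7, the protease that activates Paneth cell defensins (4.75 ± 0.842 CPM in SpdefKO_GC and 0.72 ± 0.115 CPM in WT_GC), and Pnliprp2, a pancreatic lipase relative (1.34 ± 0.534 CPM in SpdefKO_GC and 2.61 ± 0.153 CPM in WT_GC).

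Of 16 crypt-base and stem cell genes, 15 were tested, 5 fell, against 11% of all genes, and none rose, against 10.4%, with a median log2 difference of -0.36 against 0.00 for all genes. Slc12a2, a sodium-potassium-chloride cotransporter of the crypt base, fell to 768.5 ± 36.9 CPM in SpdefKO_GC, against 1358 ± 169 CPM in WT_GC (log2 -0.83 ± 0.09, adjusted p = 2.7e-06). Ephb3, a receptor that positions cells along the crypt, fell by 0.36 ± 0.10 on the log2 scale (adjusted p = 0.0156), Rgmb, a BMP co-receptor, by 0.34 ± 0.10 (adjusted p = 0.0285) and Lrig1, a brake on EGF receptors, by 0.32 ± 0.09 (adjusted p = 0.0159). Ascl2, a stem cell transcription factor named after its value was seen, averaged 2.38 ± 0.178 CPM in SpdefKO_GC and 3.86 ± 0.561 CPM in WT_GC (adjusted p = 0.027). Lgr5, the stem cell receptor for R-spondins, averaged 6.88 ± 0.953 CPM in SpdefKO_GC and 9.02 ± 1.76 CPM in WT_GC (adjusted p = 0.117).

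Of 14 transcription factors of the secretory lineage, 13 were tested, 2 rose and 2 fell, against 10.4% and 11% of all genes (median log2 0.24). Creb3l4, an endoplasmic-reticulum-bound factor of secretory cells, fell to 8.28 ± 1.09 CPM in SpdefKO_GC, against 201 ± 10.8 CPM in WT_GC (log2 -4.60 ± 0.19, adjusted p = 3.12e-11). Foxa3, a goblet cell forkhead factor, fell to 94.5 ± 7.43 CPM in SpdefKO_GC, against 164 ± 5.58 CPM in WT_GC (log2 -0.81 ± 0.12, adjusted p = 0.000104). Foxa2, another forkhead factor, rose by a log2 difference of 0.36 ± 0.09 (adjusted p = 0.00835) and Creb3l1 by 0.34 ± 0.12 (adjusted p = 0.0461). Atoh1, the factor that starts the secretory fate, averaged 364 ± 41.7 CPM in SpdefKO_GC and 387 ± 40.9 CPM in WT_GC (adjusted p = 0.494).

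Of 18 genes of Kit signalling, its ligand included, all were tested in goblet cells, 2 rose and 1 fell, close to the shares of all genes, 10.4% and 11% (median log2 -0.03). Gab2, a docking adaptor, rose to 28 ± 0.832 CPM in SpdefKO_GC, against 21.8 ± 3.64 CPM in WT_GC (log2 0.36 ± 0.11, adjusted p = 0.0299). Ptpn11, the phosphatase Shp2, fell to 87.9 ± 11.7 CPM in SpdefKO_GC, against 104 ± 6.01 CPM in WT_GC (log2 -0.26 ± 0.08, adjusted p = 0.0238). Etv1, an ETS factor named after its value was seen, was at 1.005 ± 0.342 CPM in SpdefKO_GC and 0.366 ± 0.155 CPM in WT_GC (adjusted p = 0.00999). Kitl, the ligand of Kit, was lower in goblet cells than in EC, by log2 -0.92 ± 0.07 in SpdefKO mice (adjusted p = 1.3e-09) and -0.84 ± 0.07 in WT mice (adjusted p = 3.85e-09).

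The sequence families of the markers were mostly too low to test. Of 6 other Reg genes 2 were tested, of 5 other CCN genes 1, and of 8 other pentraxins 2. None of the Reg and CCN genes passed in goblet cells. There the 2 tested Reg genes had a median log2 difference of 3.37, and the tested CCN gene was at 0.26. The pentraxins Nptx1 (higher) and Nptx2 (lower) passed at under 2 CPM and were named after their values were seen.

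**Figure D5:**
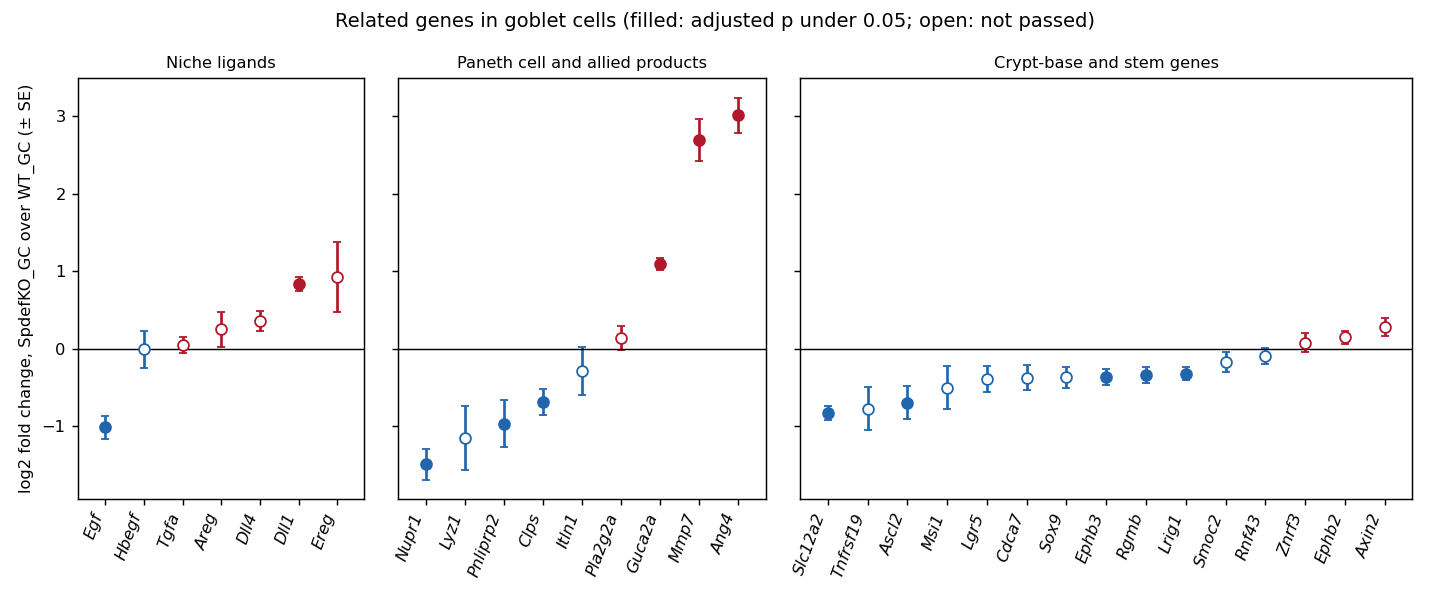
Log2 fold change of SpdefKO_GC over WT_GC, with the approximate standard error, for 7 niche ligands, 9 Paneth cell and allied products and 15 crypt-base and stem genes with at least 1 CPM in either group. Filled points passed an adjusted p of 0.05. Egf and Dll1 lie on opposite sides of 0, Ang4 is highest at 3.01, and all 5 filled crypt-base genes lie below 0.

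The same lists were read in EC, where 6.09% of all tested genes rose and 6.54% fell. Of the 7 niche ligands Egf fell, at 0.67 ± 0.364 CPM in SpdefKO_EC and 1.61 ± 0.18 CPM in WT_EC (log2 -1.23 ± 0.31, adjusted p = 0.0147; named after its value was seen at this level). Of 10 Paneth products 3 rose and 1 fell, of 15 crypt-base genes 4 fell, of 13 secretory factors 1 rose and of 18 Kit signalling genes 1 rose. The Paneth products that rose, named here after their values were seen, all averaged under 5 CPM in both EC groups. They were Ang4 (1.86 CPM in SpdefKO_EC and 0.271 CPM in WT_EC), Pla2g2a (0.30 CPM in SpdefKO_EC and 0.034 CPM in WT_EC) and Pnliprp2 (1.98 CPM in SpdefKO_EC and 1.00 CPM in WT_EC). Lgr5 fell to 8.61 ± 1.65 CPM in SpdefKO_EC, against 14.3 ± 3.03 CPM in WT_EC (log2 -0.67 ± 0.16, adjusted p = 0.0123), and Ephb3 fell by 0.40 ± 0.10 on the log2 scale (adjusted p = 0.0153). Guca2a, guanylin, fell by 0.24 ± 0.08 (adjusted p = 0.0483), Foxa2 rose by 0.31 ± 0.10 (adjusted p = 0.0462) and Lyn, a Src-family kinase, rose by 0.25 ± 0.08 (adjusted p = 0.0458).

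The genes whose levels tracked each marker most closely were read from Pearson correlations of log2 CPM (pseudocount 0.5), with no test. Over the 16 libraries, which share the gap between the fractions, each marker had several genes above 0.99. Closest to Reg4 were Ppap2a (0.998), Nov, Spink4, Gm1123 and Meg3, closest to Nov were Spink4 (0.998), Rapgef3, Gm1123, Reg4 and Sval1, and closest to Mptx1 were Gm6086 (0.996), Spink3, Reg4, Ramp1 and Acsl1. Spink4 is a Kazal-type protease inhibitor of goblet cells. Closest to Kit were Slc12a8 (0.999), Atoh1, Fcgbp, Ano7 and Fam189a1, where Fcgbp encodes an abundant mucus protein. Closest to Cd24a were Nans (0.994), Serinc3, Galnt5, Slc2a10 and Copz2, where Nans makes sialic acid and Galnt5 starts O-glycans.

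Within the 8 goblet cell libraries Acsl1 stayed among the 5 nearest genes of Mptx1, and no other of the genes above did for its marker. Closest to Reg4 were Gm20300 (0.994), Mtx3, Paqr5, Sdccag3 and Tm9sf3, closest to Mptx1 were Fam35a (0.977), Acsl1, Pnmal2, Mgat5 and Nudt8, and closest to Nov were Cldn2 (0.981), Ccdc167, Dnajc10, Dars and Fastkd3. Closest to Kit were Ankrd16 (0.958), Slc12a7, Zfp763, Gpsm1 and Pofut2, and closest to Cd24a were Panx1 (0.940), 3110002H16Rik, Gm10516, Pex10 and Traf3ip1. Among the markers themselves, Reg4 correlated with Mptx1 at 0.885 and with Nov at 0.815 over these 8 libraries, which share the genotype difference, and Mptx1 with Nov at 0.676. Kit correlated with Mptx1 at 0.394, with Reg4 at 0.056, with Nov at -0.153 and with Cd24a at -0.258.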

How the data were processed

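RNA from 16 libraries (4 per group) was sequenced from both ends after a stranded total-RNA kit with ribosomal depletion, per the labels' protocols. The authors deposited whole-number read counts per gene symbol. Per the submitters' processing notes the tools were FastQC 0.11.2, STAR 2.4.0f, HTSeq 0.6.1p1 and DESeq2 1.14, with the build mm10 and no roles given and no strand setting stated. Entries that name no gene held 47.1% to 54.7% of counts and were left out. CPM is counts per mega-count of gene counts.

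The test was edgeR 4.0.16 (limma 3.58.1, R 4.3.3), quasi-likelihood with robust dispersion, TMM and the default low-count filter, with 1 coefficient per group over all libraries; it was tested on simulated data. The standard error is the absolute log2 change over the square root of F. Alternatives were other scalings, no filter, DESeq2 1.42.0, limma-voom, the compared groups alone and leaving out each library. Named genes are the markers, Spdef, Muc2, up to 4 called genes per list and comparison (largest absolute log2 change, at least 5 CPM in the higher group) and 5 nearest genes per marker. Not every gene the rule allows is printed. The markers and lists were chosen with earlier results of these data known. Gene positions came from GENCODE M21, promoters from RefSeq, and transcript similarity from BLAST 2.17.0.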

Additional observations from a re-analysis of the deposited data

Results flagged for a closer look

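Among 92 sets of 4 libraries (a gene in a group), 5 had a library far from the other 3, where chance gives about 1 in 20. Mptx1 had 30.8 CPM in WT_EC 14, against 11.7 to 14.8 CPM in the other WT_EC libraries. Kit had 359.6 CPM in SpdefKO_GC 5, against 237 to 251 CPM in the other SpdefKO_GC libraries. The same library had 432 CPM of Lrig1, against 355 to 364 CPM in the others. Guca2a had 1298 CPM in WT_EC 12 (1154 to 1177 CPM in the others), and Creb3l1 had 165 CPM in WT_GC 13 (189 to 190.3 CPM in the others).

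Among the 5 markers, Spdef, Muc2 and the tested genes of the lists, 74 in all, the genotype difference in goblet cells and that in EC differed for 14 by the interaction test of edgeR, where 9.53% of all tested genes passed it. None of the 5 markers is among them. The log2 values are SpdefKO over WT. Muc2 was at 0.05 in goblet cells and -0.78 in EC, a difference of 0.84 (adjusted p = 0.0308). Dll1 was at 0.84 in goblet cells and 0.04 in EC, a difference of 0.79 (adjusted p = 0.00208), and Dll4 at 0.36 in goblet cells and -0.54 in EC, a difference of 0.89 (adjusted p = 0.0283). Guca2a was at 1.10 in goblet cells and -0.24 in EC, a difference of 1.34 (adjusted p = 1.1e-06), and Cbl, a ubiquitin ligase of receptor kinases, at 0.29 in goblet cells and -0.32 in EC, a difference of 0.61 (adjusted p = 0.0248). Creb3l4 was at -4.60 in goblet cells and -0.73 in EC, a difference of -3.87 (adjusted p = 1.92e-06). Nupr1 was at -1.49 in goblet cells and -0.14 in EC, a difference of -1.34 (adjusted p = 0.00719), and Slc12a2 at -0.83 in goblet cells and -0.12 in EC, a difference of -0.70 (adjusted p = 0.00162). Foxa3 was at -0.81 in goblet cells and -0.22 in EC, a difference of -0.59 (adjusted p = 0.0453). Pla2g2a was at 0.14 in goblet cells and 2.82 in EC, a difference of -2.68 (adjusted p = 0.0358), from under 1 CPM in either EC group. Mmp7 was at 2.70 in goblet cells and -0.25 in EC, a difference of 2.95 (adjusted p = 0.0447). Pnliprp2 was at -0.96 in goblet cells and 1.02 in EC, a difference of -1.99 (adjusted p = 0.00883). Etv1 was at 1.43 in goblet cells and -0.86 in EC, a difference of 2.28 (adjusted p = 0.00493), and Nptx1 at 1.87 in goblet cells and -0.88 in EC, a difference of 2.76 (adjusted p = 0.0116). The last 4 averaged under 5 CPM in every group.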

How the results depend on the processing

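Of the 385 alternative values of the marker log2 differences, 376 kept their direction and their side of the threshold, among them all those for Reg4 and Mptx1 in goblet cells and for Mptx1 in EC. For Nov, the difference in goblet cells passed under limma-voom (-0.51), in the fit of the compared groups alone (-0.49) and without SpdefKO_GC 7, with values between -0.61 and -0.39 when single libraries were left out. Those passes in goblet cells were 2 of 6 other settings and 1 of 8 fits that left out a library. In EC the difference of Nov passed in DESeq2 (-0.68), 1 of 6 other settings, and in none of 8 fits that left out a library. The difference between the genotype differences of the fractions turned its sign for Reg4 (from -0.494 to 0.035 without single libraries; 0.035 without WT_GC 13, 0.034 without SpdefKO_EC 4, 0.007 without WT_EC 10 and 0.017 without WT_EC 12) and for Nov without WT_EC 14 (-0.10, in a range from -0.10 to 0.45). The count of genes called between SpdefKO_EC and WT_EC was 1631; it was 1075 in the fit of those groups alone and from 940 (without SpdefKO_EC 4) to 2253 (without SpdefKO_EC 6) without single libraries, and 1006 without WT_EC 17. The cause was not tested. No paired analysis was run, because the groups share no replicate number. GC and EC libraries of a genotype have adjacent numbers, but the labels tie no GC library to an EC library, so the fits treat them as separate and a shared mouse was not tested. With Spearman in place of Pearson correlation, between 0 and 2 of the 5 nearest genes of each marker were shared. Depth limits the EC values of Nov most, with 186 counts over SpdefKO_EC.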
